A study of Mus musculus with 24 samples.

Results

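The insulin-like growth factor system was described here by 10 genes, which were the ligands Igf1 and Igf2, the receptors Igf1r and Igf2r, and the binding proteins Igfbp2, Igfbp3, Igfbp4, Igfbp5, Igfbp6 and Igfbp7. They were chosen by gene symbol, and all 10 were found among the 14912 genes of the deposited expression table. Left ventricles came from male wild-type C57BL/6J mice. The hypertensive-LVH group (n = 12) received angiotensin II (ANG II) for 7 days from an osmotic mini-pump placed under the skin, at a dose of 1500 ng/kg/min. ANG II raises blood pressure and leads to left ventricular hypertrophy (LVH). The control group (n = 12) received saline for 7 days in the same way, and both groups carried the same wild-type genotype. Age was not given in the sources used here. RNA of the whole ventricle was measured, so fewer cells of a type and less RNA per cell cannot be told apart. Values are in FPKM, the fragments of a gene divided by its length and by the mapped fragments of the sample, and the number of reads behind each value is unknown.

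Insulin-like growth factors 1 and 2 are small secreted hormones that signal through the receptor tyrosine kinase encoded by Igf1r, which activates the PI3K-AKT and the Ras-ERK pathways. Igf2r encodes a receptor without kinase activity that removes IGF2 from the cell surface and carries lysosomal enzymes, and the binding proteins hold the ligands in blood and matrix until proteases release them. In the heart this system is known for its part in myocyte growth and survival, and the binding proteins are made mainly by fibroblasts, vascular cells and other non-myocytes.

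The samples were not uniform. Exact ties between values placed the mice of each group in 4 sets of consecutive sample numbers. The sets of the groups were then joined by these numbers, not by ties. Set A held samples 1 to 3 of each group and set B samples 4 to 6. Set C held samples 7 to 9 and set D samples 10 to 12. Within each set, the values of a gene had been shifted and scaled. The values are therefore adjusted FPKM, and 2741 of them (0.766%) were negative. The scaling could be recovered from the spacing of the values for all 10 genes, which gives the differences between mice of a set in the original FPKM (recovered FPKM), but the shift of a set could not. In the adjusted values, 7 fibroblast markers summed to a mean of 210 FPKM in the controls of set B. In the controls of the other sets this was 764 to 819 FPKM. Because the shift of a set is unknown, these levels cannot show whether the controls or the hypertensive-LVH mice of set B were unusual. Results of the 10 genes are given also without set B or within the sets. Those of the other pathway genes named below are given without set B where that changed the call. Summed over all genes, the values of a mouse lay between 460715 and 515185 in hypertensive-LVH and between 482319 and 567727 in control. Of the marker lists for other cells, 7 of 7 macrophage markers, 5 of 5 red blood cell markers, 3 of 4 lymphatic endothelial markers and 3 of 7 fibroblast markers rose, while 3 of 6 cardiomyocyte markers fell. Endothelial (6), lymphocyte (4) and smooth muscle and pericyte (7) markers moved in both directions, with 1, 1 and 2 higher and 1 lower in each, and 0 adipocyte, mesothelial, atrial, Schwann and hepatocyte markers were called (limma). Cardiomyocyte markers summed to between 29303 and 42612 FPKM in the hypertensive-LVH group and between 39351 and 49390 in the control group.

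Of the 10 genes, 4 rose in the hypertensive-LVH group at an adjusted P under 0.05 (limma, Benjamini-Hochberg over 14026 genes), and 0 fell, also at an unadjusted P under 0.05. The 4 genes were Igfbp7, Igfbp2, Igfbp3 and Igf1r. Over all genes tested, 20.9% rose, 12.6% fell and 33.5% changed in either direction. With the added criterion of an absolute log2 fold change over 0.5, Igfbp7, Igfbp2 and Igfbp3 remained, where 4.52% of all genes tested were higher and 1.40% lower. The median log2 fold change was 0.38 over the 10 genes and 0.05 over all genes tested. Among all genes called, 62.3% were higher, and this share was 51.7% with median-ratio scaling, 39.6% with quantile normalization and 41.9% without set B. None of the 10 genes fell under any of these settings.

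The sequences before the transcription starts of the 4 genes that rose are shown because these genes moved in the same direction in the ventricle. They were taken from RefSeq on the build GRCm38.p6 and span the 250 bases before the start, written 5′ to 3′ on the strand of the gene. Capitals mark the GC box GGGCGG on either strand, and the TATA box TATAAA and the CCAAT box CCAAT were also searched on both strands, with no overlaps between the 3 motifs in these windows. The windows lie at chr5:77408046-77408295 on the minus strand for Igfbp7, chr1:72824230-72824479 on the plus strand for the first start of Igfbp2, chr11:7213924-7214173 on the minus strand for Igfbp3, and chr7:67952007-67952256 on the plus strand for Igf1r.
Igfbp7: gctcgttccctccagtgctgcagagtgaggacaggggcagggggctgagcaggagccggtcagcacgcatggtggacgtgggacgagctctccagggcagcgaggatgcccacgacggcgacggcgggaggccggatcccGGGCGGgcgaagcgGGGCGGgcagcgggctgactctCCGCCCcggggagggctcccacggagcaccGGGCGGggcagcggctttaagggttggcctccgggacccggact
Igfbp2: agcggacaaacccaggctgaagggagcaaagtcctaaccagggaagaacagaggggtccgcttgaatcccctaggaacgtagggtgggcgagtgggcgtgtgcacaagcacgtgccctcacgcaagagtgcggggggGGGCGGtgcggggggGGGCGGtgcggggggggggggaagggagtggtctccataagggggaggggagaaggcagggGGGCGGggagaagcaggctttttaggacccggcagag
Igfbp3: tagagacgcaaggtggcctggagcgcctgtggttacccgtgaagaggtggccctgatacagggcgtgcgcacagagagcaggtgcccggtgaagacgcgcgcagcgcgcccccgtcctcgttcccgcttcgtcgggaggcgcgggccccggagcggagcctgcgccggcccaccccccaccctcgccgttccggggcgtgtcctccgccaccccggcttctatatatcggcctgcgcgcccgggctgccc
Igf1r: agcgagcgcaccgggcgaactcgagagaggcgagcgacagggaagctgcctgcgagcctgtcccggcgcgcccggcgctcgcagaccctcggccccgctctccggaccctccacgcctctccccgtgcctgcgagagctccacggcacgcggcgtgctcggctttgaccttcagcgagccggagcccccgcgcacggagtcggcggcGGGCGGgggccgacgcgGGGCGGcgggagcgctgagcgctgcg
With the 50 bases after the start included, the Igfbp7 window held 4 GC boxes, the Igfbp2 window 3, the Igf1r window 2 and the Igfbp3 window 0, and none of these 4 windows held a TATA or CCAAT box. A GC box was present in 35.7% of 32851 RefSeq promoters of the same 300 bases, a TATA box in 13.6% and a CCAAT box in 37.4%. The GC content was 73.3% for Igfbp7, 67.0% for Igfbp2, 71.7% for Igfbp3 and 76.0% for Igf1r, where the median of all promoters was 52.7% and the 90th percentile 69.7%. The window of the second start of Igfbp2 held none of the 3 motifs and had a GC content of 57.3%. Among the genes that did not pass the test, the Igf2r window held 3 GC boxes (GC content 70.7%), the Igfbp4 window 1 TATA box (71.3%), the Igf1 window 1 CCAAT box (52.3%), the Igfbp6 window 1 TATA box and 2 CCAAT boxes (49.7%), and the Igfbp5 window none of the 3 (56.3%). Of the 4 windows of Igf2, with a GC content of 49.7% to 64.7%, 1 held 1 GC box, 1 held 2 GC boxes and 1 CCAAT box, and 2 held none. Igfbp4 and Igf2r thus had GC contents like those of the genes that rose. These matches describe the letters of the windows and are not binding sites.

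On GRCm38 (GENCODE vM21) all 10 genes are protein-coding. Igfbp2 (chr1:72824503-72852474) and Igfbp5 (chr1:72857932-72874884) are neighbours on chromosome 1 and are read from opposite strands. Igfbp7 lies at chr5:77349240-77408041, Igfbp3 at chr11:7206086-7213923, Igfbp4 at chr11:99041244-99054392 and Igfbp6 at chr15:102144362-102149511. The ligand genes lie at chr10:87858265-87937042 (Igf1) and chr7:142650766-142666816 (Igf2), and the receptor genes at chr7:67952827-68233668 (Igf1r) and chr17:12682406-12769664 (Igf2r). Whether the counting used strand was not given in the sources used here, so reads of Igfbp7 cannot be told apart from those of Polr2b on the opposite strand where they overlap, nor those of Igf2r from Airn, Igf1 from Igf1os and Igf2 from Igf2os. Igf2 also overlaps Gm49394 on the same strand.

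In the control group the levels ran from Igfbp7 at 182 ± 73.0 FPKM (SD, n = 12) down to Igfbp2 at 0.424 ± 1.94. Below Igfbp7 came Igfbp4 (75.7 ± 25.7), Igfbp5 (50.9 ± 36.2) and Igf2r (37.7 ± 2.45), of which Igfbp4 and Igfbp5, and Igfbp5 and Igf2r, overlapped within 1 SD. Igfbp6 (18.4 ± 6.10), Igf2 (16.8 ± 6.05) and Igfbp3 (14.6 ± 4.38) did not differ beyond their spread. Igf1 (7.15 ± 1.24) and Igf1r (6.02 ± 1.16) also overlapped. For Igfbp2 most of this spread lay between the sets, since the recovered SD among the 3 controls of a set was 0.0416 to 0.1531 FPKM.

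**Figure D1:**
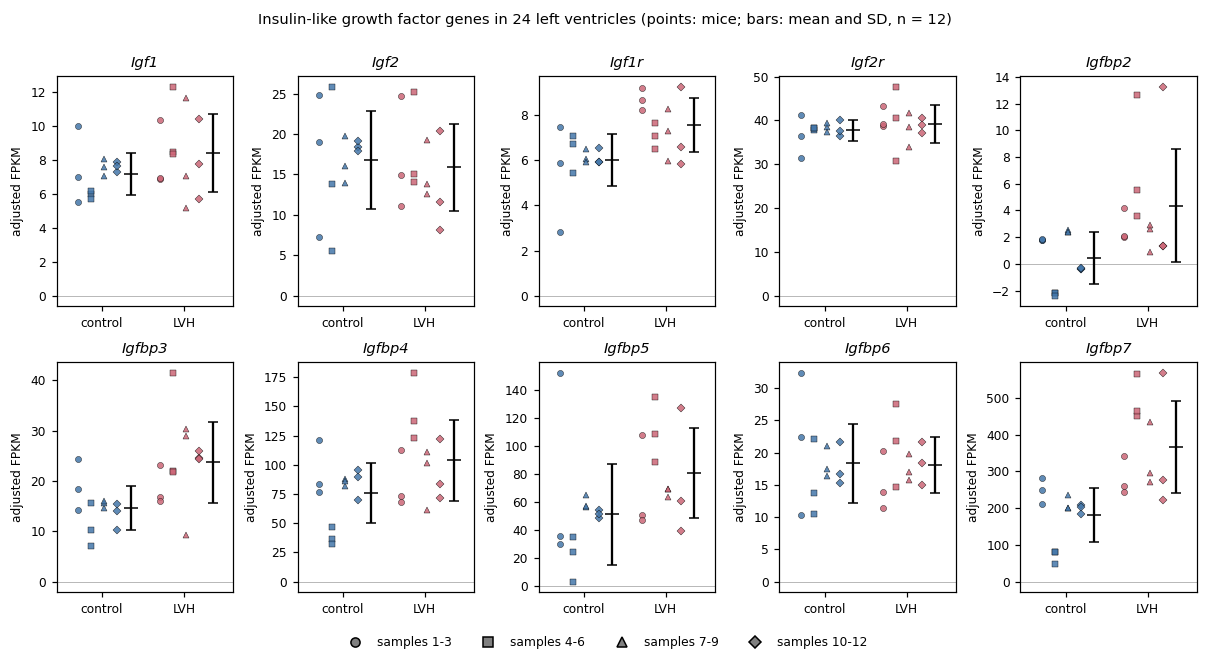
Adjusted FPKM (y axis) of the 10 genes in each mouse of the control and hypertensive-LVH (LVH) groups, with symbols for the 4 sets of samples and bars for the mean and SD (n = 12). All 12 hypertensive-LVH mice lie above the control median for Igfbp2 and Igfbp7, and the controls of set B (samples 4 to 6) are the lowest for Igfbp2, Igfbp4 and Igfbp7.

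The ligands did not pass the test. Igf1, which most tissues make locally beside the supply from the liver, ranged from 5.53 to 9.99 FPKM with a median of 7.17 in the control group and from 5.18 to 12.3 with a median of 8.06 in the hypertensive-LVH group. The groups overlapped, with 4 hypertensive-LVH mice above the highest control. The log2 fold change on the log2(FPKM + 1) scale was 0.18 ± 0.11 (SE, 95% interval -0.05 to 0.42, adjusted P = 0.211, limma). In the recovered FPKM, with a term for the set, Igf1 was higher by 2.15 ± 0.74 FPKM (SE, adjusted P = 0.0372, limma), where 16.2% of 13648 genes were higher and 9.44% lower. The recovered difference was -0.35 FPKM in set A, 4.69 in set B, 2.76 in set C and 1.5 in set D. The call for Igf1 thus depended on the fit, since the fit of recovered values also had a set term and no logarithm. In the adjusted values Igf1 was not called with a set term (adjusted P = 0.256, limma) or without a logarithm (adjusted P = 0.172, limma). A fit of adjusted values with both changes was not run.

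Igf2, an imprinted growth factor of fetal life, was the more abundant ligand. It ranged from 5.56 to 25.9 FPKM in the control group (median 18.2) and from 8.09 to 25.2 in the hypertensive-LVH group (median 14.5). No hypertensive-LVH mouse exceeded the highest control, and 4 of 12 lay above the control median. Its log2 fold change was -0.04 ± 0.21 (SE, 95% interval -0.46 to 0.38, adjusted P = 0.894, limma), an interval that leaves room for a change of either sign. Within the sets the recovered difference was -0.08, 4.36, -0.86 and -4.21 FPKM in sets A, B, C and D. The ratio of Igf1 to Igf2 was 0.502 ± 0.246 in the control group and 0.570 ± 0.187 in the hypertensive-LVH group (SD, n = 12 each).

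Of the receptors, Igf1r, the signalling receptor for both ligands, rose by a small amount. It ranged from 2.84 to 7.49 FPKM in the control group with a median of 6.01, and from 5.86 to 9.27 in hypertensive-LVH mice with a median of 7.48. The groups overlapped, but 10 of 12 hypertensive-LVH mice exceeded the control median and 6 exceeded the highest control. The fitted log2 change was 0.29 ± 0.10 (SE, 95% interval 0.09 to 0.50, adjusted P = 0.0244, limma), and the recovered difference was 1.88 ± 0.60 FPKM (SE, adjusted P = 0.0268). The recovered difference was positive in all 4 sets, with 3.98 FPKM in set A and between 0.90 and 1.44 in the others. The lowest control value, 2.84 FPKM in control sample 3, belonged to the set with the largest difference. The call was not held with median-ratio scaling (0.25, adjusted P = 0.0542), with quantile normalization (0.20, adjusted P = 0.116) or when any set of samples was left out (0.17 to 0.35, adjusted P 0.051 to 0.0952).

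Igf2r, the scavenging receptor, was listed at 31.3 to 41.1 FPKM in the control group (median 38.0) and 30.7 to 47.7 in the hypertensive-LVH group (median 39.0). Its log2 fold change was 0.05 ± 0.05 (SE, 95% interval -0.06 to 0.16, adjusted P = 0.482, limma). A rise of more than 0.16 on the log2 scale lay outside this interval, which holds for the adjusted values only. The recovered difference was 2.51 ± 1.49 FPKM (SE, 95% interval -0.58 to 5.61, adjusted P = 0.205, limma) and was positive in all 4 sets. Igf2r stood at 6.54 ± 1.57 times the level of Igf1r in the control group and at 5.31 ± 1.00 times in the hypertensive-LVH group (SD, n = 12 each).

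Of the 6 binding protein genes, Igfbp2, Igfbp3 and Igfbp7 rose, Igfbp4 and Igfbp5 had positive log2 fold changes that did not pass the test, and Igfbp6 had a log2 fold change near 0. Igfbp7, which encodes a secreted protein of the vessel wall with low affinity for the ligands, was the most abundant in both groups. It ranged from 48.5 to 282 FPKM in the control group (median 203) and from 223 to 569 in the hypertensive-LVH group (median 320). All 12 hypertensive-LVH mice exceeded the control median and 7 exceeded the highest control. The fitted log2 change was 1.09 ± 0.25 (SE, 95% interval 0.58 to 1.60, adjusted P = 0.00183, limma), and the recovered difference was 194 ± 49.3 FPKM (SE, adjusted P = 0.00796).

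The size of the Igfbp7 difference depended on the set. In the adjusted values it was 34.9 FPKM in set A, 423 in set B, 123 in set C and 158 in set D. The recovered values gave -8.45, 481, 157 and 149 FPKM for the same sets. The test of the difference between the sets (limma, interaction of group and set, adjusted log2 values) gave an adjusted P of 0.000402, where 7.49% of all genes tested passed. In the adjusted values, where the shift of a set is unknown, the controls of set B were listed at 48.5, 80.7 and 80.6 FPKM. The other 9 controls were listed at 184 to 282. Without set B the log2 fold change was 0.51 (adjusted P = 0.0175, limma), and Igfbp7 was the only one of the 10 genes still called. Of all 14026 genes, 1173 were then higher and 1629 lower.

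Igfbp2 encodes a high-affinity binding protein that is prominent in fetal tissues. It had the largest log2 fold change of the 10 genes and the lowest level. Controls ranged from -2.38 to 2.55 FPKM with a median of 0.738, and 6 of them were negative after the adjustment. The hypertensive-LVH mice ranged from 0.920 to 13.3 FPKM with a median of 2.73, and 7 exceeded the highest control. Hypertensive-LVH samples 4 and 11 were the highest, at 12.7 and 13.3 FPKM, and the next highest was listed at 5.54. Its log2 fold change was 1.29 ± 0.34 (SE, 95% interval 0.58 to 2.00, adjusted P = 0.00603, limma), with negative values set to 0. Because negative controls were set to 0 and the shift of a set is unknown, the fold depends on the pseudocount and was 2.77 on the log2 scale with a pseudocount of 0.1.

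The recovered differences of Igfbp2 did not depend on a pseudocount. They were 0.84 FPKM in set A, 10.8 in set B, 1.41 in set C and 6.23 in set D, and in each of the 4 sets all 3 hypertensive-LVH mice lay above all 3 controls. Igfbp2 was the only member with no overlap in all 4 sets. In set A the margin was as small as the step of the values, 0.01 FPKM. There, relative to the first control, the lowest hypertensive-LVH mouse lay at 0.09 FPKM and the highest control at 0.08. The share of all genes with no overlap in all 4 sets was not counted, so whether this is unusual is unknown. The mean recovered difference was 4.83 ± 1.67 FPKM (SE, adjusted P = 0.0379, limma). The log2 differences of the adjusted values differed between the sets (0.36, 2.89, -0.21 and 2.11, interaction adjusted P = 0.0158, limma). Without set B the log2 fold change was 0.75 (adjusted P = 0.151).

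Igfbp3 encodes the main carrier of the ligands in plasma, where it forms a complex with the acid-labile subunit. It ranged from 7.09 to 24.4 FPKM in the control group (median 15.0) and from 9.32 to 41.5 in the hypertensive-LVH group (median 23.8). The groups overlapped, with 11 of 12 hypertensive-LVH mice above the control median and 6 above the highest control. The fitted log2 change was 0.64 ± 0.18 (SE, 95% interval 0.27 to 1.01, adjusted P = 0.00881, limma), and the recovered difference was 9.42 ± 3.22 FPKM (SE, adjusted P = 0.0361). By set, the recovered difference was -2.29 FPKM in set A, 21.0 in set B, 7.86 in set C and 11.1 in set D. The call was lost without set B (0.42, adjusted P = 0.112) and without set D (0.55, adjusted P = 0.0841).

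**Figure D2:**
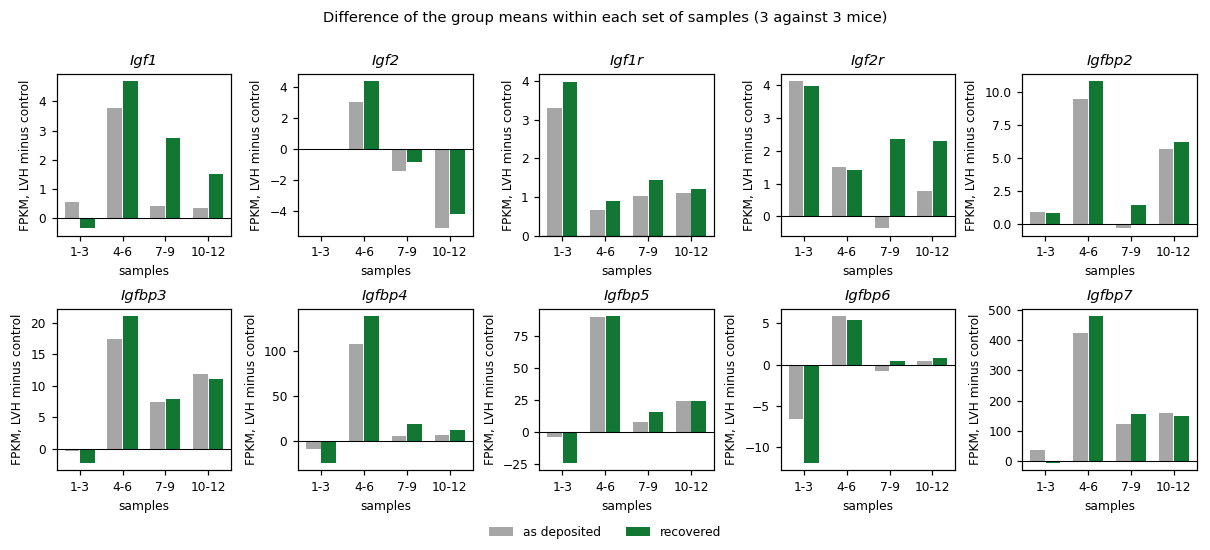
Difference of the group means in FPKM (y axis, hypertensive-LVH minus control, 3 against 3 mice) of each gene within each of the 4 sets of samples, from the adjusted values as deposited (grey) and the recovered values (green). Samples 4 to 6 (set B) have the tallest positive bars for all 6 binding proteins, and the recovered bars of Igfbp2 are positive in all 4 sets.

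Igfbp4, a binding protein that mainly holds ligands back and is cleaved by pregnancy-associated plasma protein A, ranged from 32.7 to 121 FPKM in the control group (median 82.8) and from 61.6 to 179 in the hypertensive-LVH group (median 106). Its log2 fold change was 0.47 ± 0.20 (SE, 95% interval 0.06 to 0.88, adjusted P = 0.0685, limma). This average covered sets that differed, with recovered differences of -24.1 FPKM in set A, 139 in set B, 18.98 in set C and 12.9 in set D. The interaction of group and set in the adjusted log2 values gave an adjusted P of 0.00182 (limma). In set B the 3 hypertensive-LVH mice lay above the 3 controls, and in the other sets the groups overlapped. Without set B the log2 fold change of Igfbp4 was -0.0013 (adjusted P = 0.997).

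Igfbp5, a conserved binding protein that adheres to extracellular matrix, had controls that lay far apart. They ranged from 2.88 to 152 FPKM (median 49.9) and hypertensive-LVH mice ranged from 39.0 to 135 (median 69.0). The highest value of all was that of control sample 2, and the next highest control was listed at 64.5 FPKM. The fitted log2 change was 0.90 ± 0.37 (SE, 95% interval 0.14 to 1.67, adjusted P = 0.0613, limma), and 10 of 12 hypertensive-LVH mice lay above the control median. Without control sample 2 the log2 fold change was 1.08 (adjusted P = 0.018), and without set B it was 0.25 (adjusted P = 0.507). The recovered difference was 26.3 ± 19.3 FPKM (SE, adjusted P = 0.308), with -24.5 FPKM in set A, 90.1 in set B, 15.4 in set C and 24.2 in set D.

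Igfbp6, which prefers IGF2 to IGF1, was listed at 10.4 to 32.4 FPKM in the control group (median 17.1) and 11.4 to 27.5 in the hypertensive-LVH group (median 17.7). Its log2 fold change was 0.01 ± 0.15 (SE, 95% interval -0.30 to 0.32, adjusted P = 0.973, limma). Control sample 2 again held the highest value. In that mouse 5 mesothelial markers summed to 53.2 FPKM, also the highest of the 24 mice, where the medians were 13.2 in the control group and 16.9 in the hypertensive-LVH group. The part of mesothelial cells in the values of Igfbp6 was not tested.

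**Figure D3:**
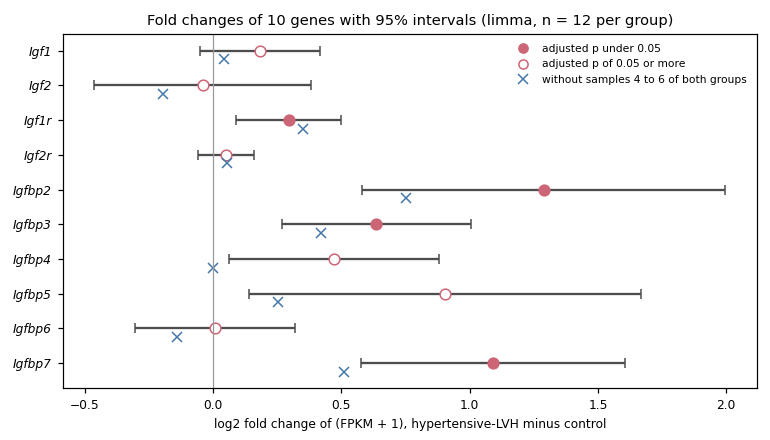
Log2 fold change of (FPKM + 1), hypertensive-LVH minus control, with its 95% interval (x axis) for the 10 genes (y axis, limma, n = 12 per group), filled where the adjusted P was under 0.05, and as a cross without set B (samples 4 to 6 of both groups). The intervals of Igfbp2, Igfbp3, Igfbp7 and Igf1r lie above 0 with filled points, and the crosses of the 6 binding proteins all lie to the left of the circles.

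The binding proteins were also compared as a pool within each mouse, with negative values set to 0 and as a description. The 6 genes summed to 343 ± 129 FPKM in the control group and 597 ± 193 in the hypertensive-LVH group (SD, n = 12 each). Igfbp7 made up 52.3 ± 8.33% of the pool in the control group and 61.2 ± 3.05% in the hypertensive-LVH group, the spread being wider among the controls. Igfbp4 held 22.6 ± 2.16% and 17.5 ± 2.17%, Igfbp5 14.0 ± 6.06% and 13.3 ± 2.55%, and Igfbp6 6.13 ± 3.43% and 3.20 ± 0.872%. Igfbp3 held 4.68 ± 1.64% and 4.13 ± 1.38%, and Igfbp2 0.262 ± 0.288% and 0.648 ± 0.459%. Per 100 FPKM of binding proteins there were 2.39 ± 0.959 FPKM of Igf1 in the control group and 1.45 ± 0.260 in the hypertensive-LVH group, and 5.52 ± 3.16 and 2.77 ± 0.891 FPKM of Igf2. In the adjusted values, on which these ratios rest, neither ligand passed the test. Without set B the pool was 405 ± 72.3 FPKM in the control group and 527 ± 163 in the hypertensive-LVH group (SD, n = 9 each), so the difference was smaller. Igfbp7 then held 54.7 ± 5.62% and 61.3 ± 3.49% of it, Igfbp4 21.8 ± 1.92% and 17.3 ± 2.38%, and Igfbp6 4.70 ± 0.861% and 3.37 ± 0.833%. Per 100 FPKM of binding proteins there remained 1.89 ± 0.285 and 1.54 ± 0.236 FPKM of Igf1 and 4.30 ± 1.10 and 2.93 ± 0.872 FPKM of Igf2. The share of Igfbp3 turned from lower to higher in hypertensive-LVH mice, at 3.94 ± 0.778% and 4.37 ± 1.47%.

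**Figure D4:**
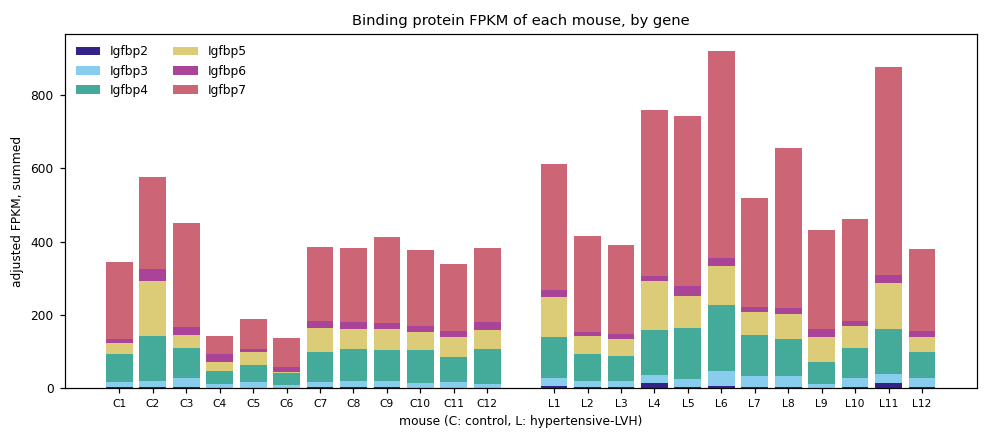
Adjusted FPKM of the 6 binding protein genes summed in each mouse (y axis, negative values drawn as 0), for control mice C1 to C12 and hypertensive-LVH mice L1 to L12 (x axis), with a colour for each gene. Igfbp7 is the widest band in all 24 mice, and the controls C4 to C6 (set B) have the smallest sums.

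Cell type markers moved with several of these genes. The 7 fibroblast markers had a summed level of 142 to 873 FPKM in the control group (median 769) and 621 to 2244 in the hypertensive-LVH group (median 1059). In set B, where Igfbp4, Igfbp5 and Igfbp7 differed most, the summed fibroblast level was 210 FPKM in the controls and 1746 in the hypertensive-LVH mice, a ratio of 8.31, and in the other sets the ratio was 1.16 to 1.36. The 7 macrophage and monocyte markers ranged from 183 to 410 FPKM in the control group and from 224 to 711 in the hypertensive-LVH group. Their ratio between the groups was 1.02 in set A, 2.80 in set B, 2.26 in set C and 1.24 in set D. The 6 endothelial markers summed to 347 to 447 FPKM in the control group and 319 to 520 in the hypertensive-LVH group, with ratios of 0.938 to 1.27 in the sets. The lists of adipocyte, atrial, cardiomyocyte, smooth muscle and pericyte, and Schwann markers also differed most in set B. There the 3 adipocyte markers summed to 0.242 FPKM in the controls and 29.5 in the hypertensive-LVH mice, and in the other sets to 8.41 to 16.6 and 6.65 to 12.6. The 3 atrial markers summed to 16.9 and 886 FPKM in set B, and to 1051 and 208 in set A. The ratio in set B was 0.661 for cardiomyocyte markers (0.755 to 0.898 in the other sets), 1.58 for smooth muscle and pericyte markers (0.943 to 1.11) and 1.89 for Schwann markers (0.749 to 0.884). Red blood cell markers had a ratio of 2.67 in set B and of 1.71 to 7.03 in the other sets. These levels and ratios are of adjusted values, where the shift of a set is unknown. The part of these cells in the differences of the 10 genes was not tested.

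Each gene was also set beside the summed markers after the mean of each group in each set had been removed, so that the group difference played no part. Pearson's r over the 24 mice is a description, and the points share their libraries and their adjustment by sets. Igf1 (0.80), Igfbp4 (0.79) and Igfbp3 (0.74) were most like the fibroblast sum, Igfbp2 the endothelial sum (0.83) and Igfbp6 the mesothelial sum (0.88). The 6 negative controls of Igfbp2 were set to 0, so they showed no variation of Igfbp2 here or below. Its other controls varied little within their sets, from 1.81 to 1.89 FPKM in set A and from 2.41 to 2.55 in set C. The values of r for Igfbp2 thus rest mainly on the hypertensive-LVH mice. Igfbp7 was most like the macrophage and monocyte sum (0.64) and the endothelial sum (0.63). Igfbp4 was also like the smooth muscle and pericyte sum (0.73), and Igf1 the lymphocyte sum (0.69). Igfbp4 (0.70), Igfbp5 (0.68) and Igf1 (0.67) were also like the adipocyte sum, and Igfbp5 (0.68), Igf2 (0.67) and Igfbp4 (0.66) the Schwann sum. The values of Igf1r ran from -0.63 with the cardiomyocyte sum to 0.64 with the lymphatic endothelial sum. Igf1 had -0.71 with the cardiomyocyte sum, and the other members had -0.44 (Igfbp4) to 0.05 (Igf2) with it. The values of Igf2r ran from -0.49 with the Schwann sum to 0.28 with the endothelial sum. Among the members the closest pairs were Igf1 and Igfbp4 (0.79), Igf2 and Igfbp5 (0.77) and Igfbp2 and Igfbp7 (0.69).

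**Figure D5:**
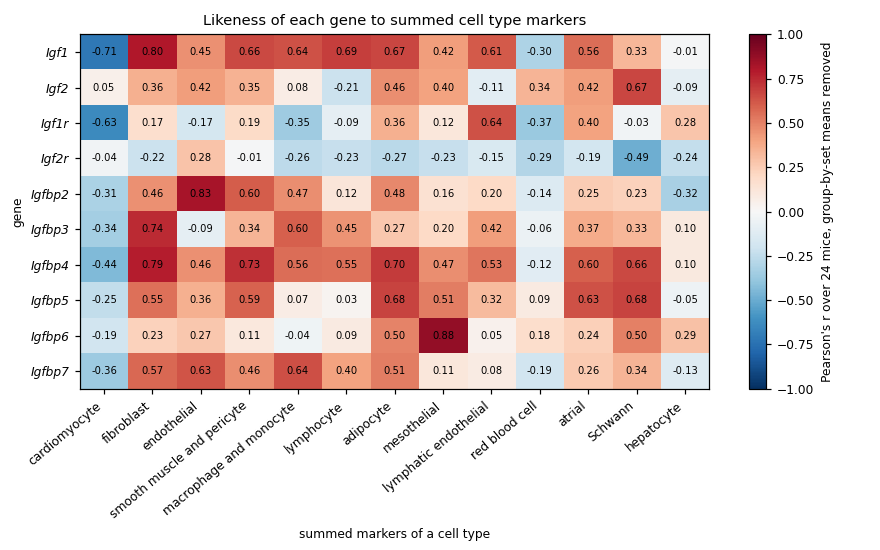
Pearson's r over the 24 mice (colour and printed value) between each of the 10 genes (y axis) and the summed markers of each cell type (x axis), after the mean of each group in each set was removed. The highest values are those of Igfbp6 with mesothelial markers (0.88) and Igfbp2 with endothelial markers (0.83).

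Over the whole table, the genes whose log2(FPKM + 1) followed each member most closely in the same way were as follows, with r over 24 mice. For the ligands these were Ptpra (0.94), Nlgn2 (0.94) and Slc1a3 (0.94) with Igf1, and Wif1 (0.82), Zfp689 (0.81) and Rftn2 (0.81) with Igf2. For the receptors they were Bdp1 (0.96), Ubxn2a (0.95) and Msi2 (0.95) with Igf1r, and Ptprm (0.84), Nt5c1a (0.84) and Klhdc10 (0.82) with Igf2r. Igfbp2 was followed by Cdk1 (0.88), Ccnb2 (0.88) and Kntc1 (0.88), and Igfbp3 by Tgfbi (0.90), Slc7a8 (0.84) and Bcat1 (0.83). Igfbp4 was followed by Anpep (0.95), Tmem39a (0.92) and Ehd3 (0.91), and Igfbp5 by Serpina3a (0.90), Boc (0.90) and Zfp185 (0.87). Igfbp6 was followed by Rspo1 (0.93), Cyp2s1 (0.89) and Krt19 (0.89), and Igfbp7 by Rab31 (0.94), Mxra8 (0.94) and Cpt1c (0.92).

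Other genes of the pathway were taken from 11 lists. Of 78 genes tested, 19 rose (24.4%, where 20.9% of all genes tested rose) and 13 fell (16.7%, where 12.6% of all fell), which is near the background in both directions. The median log2 fold change of these genes was 0.11. Without set B 11 of them were higher and 12 lower, where 1173 of all 14026 genes were higher and 1629 lower. Of the genes named below, Mmp2, Pappa, Ctsd, Esm1, Cyr61, Jak2, Rps6kb1, Tsc2, Gsk3a, Shc1 and Nras were then not called. Akt1 and Cish (higher) and Pik3r2 and Stc2 (lower) were called only without set B (adjusted P of 0.000846 to 0.0282, limma). The counts of each list below are from all samples. Among the proteases of the binding proteins and the inhibitors of those proteases, 5 of 9 rose and 0 fell (limma, 0 also at an unadjusted P under 0.05). Of these 5, Mmp2, Pappa (adjusted P = 0.179) and Ctsd (adjusted P = 0.231) were not called without set B (limma). Stc2 of the same list was then lower (-0.50, adjusted P = 0.00101). Stc1, stanniocalcin 1, an inhibitor of pregnancy-associated plasma protein A, was at 1.08 FPKM in the control group and 3.02 in the hypertensive-LVH group (log2 fold change 0.94, adjusted P = 0.000192). Mmp2, gelatinase A, rose by 1.03 (adjusted P = 0.0343, and 0.13 with adjusted P = 0.351 without set B) and Adam9, a membrane metalloprotease, by 0.40 (adjusted P = 0.0023) on the log2 scale.

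Among 7 carrier and other binding partners, 1 rose and 1 fell. Htra1, a secreted serine protease with a domain like that of the binding proteins, fell from 65.1 ± 4.1 to 47.6 ± 4.5 FPKM (SD, n = 12 each, log2 fold change -0.45, adjusted P = 8.84e-07, limma). None of the 12 hypertensive-LVH mice lay above its control median. Esm1, an endothelial proteoglycan, rose by 0.26 on the log2 scale (adjusted P = 0.00995, and 0.15 with adjusted P = 0.195 without set B). In the CCN family, whose proteins share a domain with the binding proteins, 3 of 5 rose, with log2 fold changes of 1.63 for Ctgf (adjusted P = 0.0142), 1.61 for Wisp2 (adjusted P = 0.00561) and 0.90 for Cyr61 (adjusted P = 0.0311). Without set B these were 1.22 for Ctgf (adjusted P = 0.000951), 0.57 for Wisp2 (adjusted P = 0.0377) and 0.56 for Cyr61 (adjusted P = 0.0595). Of 2 mRNA-binding genes of the Igf2bp family in the table, Igf2bp2 rose by 0.42 (adjusted P = 0.00366).

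Of the 6 genes of the growth hormone axis, which drives Igf1 transcription in the liver, 2 rose and 2 fell. Socs2, a feedback inhibitor of growth hormone signalling, was at 27.2 FPKM in the control group and 43.3 in the hypertensive-LVH group (log2 fold change 0.64, adjusted P = 0.000134, limma). The transcription factor Stat5a fell from 9.99 to 6.49 FPKM (-0.55, adjusted P = 5.02e-07), and the kinase Jak2 rose by 0.30 (adjusted P = 0.0196, and 0.28 with adjusted P = 0.0974 without set B).

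Downstream of the receptor the calls were divided. None of 3 genes of the insulin receptor and its substrates passed the test (limma, 0 also at an unadjusted P under 0.05). Of the 11 PI3K and AKT genes, 2 rose and 2 fell, and these included the kinase Akt2, which fell from 107 to 84.4 FPKM (-0.34, adjusted P = 5.02e-07). The phosphatase Inpp5d rose by 0.57 (adjusted P = 7.64e-05). Of the 10 genes of the mTOR branch, 2 rose and 2 fell. Eif4ebp1, a repressor of translation, rose from 78.0 to 119.99 FPKM (0.61, adjusted P = 6.36e-05), the kinase Rps6kb1 rose by 0.22 (adjusted P = 0.0379), and Tsc2, an inhibitor of mTOR, fell by 0.14 (adjusted P = 0.0252). Of the 5 FoxO and GSK3 genes, Foxo4 fell by 0.15 (adjusted P = 0.00318) and Gsk3a fell by 0.10 (adjusted P = 0.0412). Without set B the log2 fold changes were 0.26 for Rps6kb1 (adjusted P = 0.0835), -0.14 for Tsc2 (adjusted P = 0.0677) and -0.09 for Gsk3a (adjusted P = 0.203).

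In the Ras and ERK branch 2 of 12 genes rose. The adaptor Shc1 rose by 0.30 (adjusted P = 0.00219, limma) and Nras rose by 0.15 (adjusted P = 0.0208). Without set B these were 0.17 (adjusted P = 0.0829) and 0.07 (adjusted P = 0.339). Of the 8 receptor adaptors and inhibitors, 1 rose and 3 fell. Grb14, which blocks the kinase of the insulin receptor, fell from 118 to 87.3 FPKM (-0.44, adjusted P = 1.20e-05), Gab1 fell by 0.26 (adjusted P = 0.0148), and the phosphatase Ptpn11 rose by 0.34 (adjusted P = 5.55e-05).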

How the data were processed

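RNA selected with oligo(dT) from mouse left ventricles was sequenced by the authors, who deposited FPKM by gene and sample. The submitters' processing notes name HISAT, Bowtie2 and RSEM, and the genome build is not given in the sources used here. Per the ties between values, the deposited FPKM had been shifted and scaled gene by gene within 4 sets of samples, a step the methods do not name, so the unit is adjusted FPKM. Samples of a group were joined into a set where at least 100 genes were tied (282 to 600 ties within a set and group, at most 82 between sets). The sets of the control and hypertensive-LVH groups were then joined by their sample numbers. The recovery requires the same scale in both groups of a set. Recovered FPKM were computed from steps of 0.01 FPKM for 14161 genes (95.0%), after setting aside 1 group difference per gene. The spacing gave no step for 485 genes and more than 1 or no solution for 266. The recovery and the fits were checked on simulated data.

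Negative values were set to 0, log2(FPKM + 1) was used, and limma 3.58.1 (R 4.3.3, intensity trend, Benjamini-Hochberg adjustment, no covariates) tested the 14026 genes whose mean reached 0.1. Python 3.11.15, numpy 2.4.6, pandas 2.3.3 and scipy 1.17.1 were used for the rest. Printed means and SD kept negative values. Further samples of the study were not analysed here. The members, the pathway lists and the cell markers were chosen with earlier results of these data known, and were written by hand. Named were all 10 members, up to 3 genes per pathway list with the largest change among those called, the 3 genes most like each member, and markers that are absent. The markers Lep, Alb and Serpina1a and the pathway genes Insrr, Irs4, Igfbp1, Igf2bp1, H19 and Grb7 were not used here. Some pathway genes that this rule would name are not reported here. Alternatives were the pseudocount, the filter, the scaling, the trend, a set term, a replicate block, values without a logarithm, genes without negative values, and leaving out mice or sets. The fit of recovered values, and the pathway genes and binding protein shares without set B, were added after the data were seen.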

Additional observations from a re-analysis of the deposited data

Results flagged for a closer look

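In the adjusted log2 values, the response to ANG II differed between the 4 sets of samples for 3 of the 10 genes (limma, interaction of group and set). The adjusted P was 0.000402 for Igfbp7, 0.00182 for Igfbp4 and 0.0158 for Igfbp2, where 7.49% of 14026 genes passed. The log2 differences in sets A, B, C and D were 0.18, 2.83, 0.63 and 0.72 for Igfbp7. They were -0.15, 1.89, 0.05 and 0.09 for Igfbp4, and 0.36, 2.89, -0.21 and 2.11 for Igfbp2. The unknown shift of a set and the negative values set to 0 affect these log2 differences. In set C the recovered difference of Igfbp2 was positive, at 1.41 FPKM. The interaction was not tested in the recovered values. The other 7 genes had adjusted P values of 0.112 (Igfbp5), 0.227 (Igfbp3) and 0.431 to 0.831.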

How the results depend on the processing

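The 4 genes that rose numbered 1 without set B and 2 without set D, and 3 to 6 in the other settings, of which 4 to 6 when 1 mouse was left out (6 without control replicate 2). Of all 14026 genes, 2928 were higher with all mice, 1173 without set B and 2223 without set D. None of the 10 genes was called lower in any setting. Igfbp7 was called throughout, with a log2 fold change of 0.51 without set B and 1.39 without set A. The group mean of each gene was removed from the adjusted log2(FPKM + 1). Same-numbered mice then had correlations of -0.56 to 0.0, and 0 of them correlated best with their own number. The adjustment by sets acts on these correlations, so they cannot show whether the replicate numbers paired the mice. With the replicate block 3 of the 10 genes were called, where 1586 of 14026 genes were higher, and Igf1r was not called (0.29, adjusted P = 0.0624, limma). Of the other pathway genes, 19 were higher and 13 lower, against 11 higher with the replicate block, 11 higher without set B and 7 lower without set C. Igfbp4 was called without set A (0.68, adjusted P = 0.0333), hypertensive-LVH replicate 3 or 9, or control replicate 2, and Igfbp5 without hypertensive-LVH replicate 12 or control replicate 2. The interaction called 3 genes in all settings tried. Of 40 differences within sets, 36 moved by less than 1 SD on recovery and 5 changed sign. The causes were not tested.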

Other observations

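The single group difference that the adjustment set aside for each gene could be set beside the recovered differences within the sets. For 2 of the 10 genes it lay outside the range of the 4 sets. For Igf1 it was 7.65 FPKM, where the sets gave -0.35 to 4.69, and for Igf2r it was 7.46 FPKM, where the sets gave 1.41 to 3.98. For the genes that rose it was 2.06 FPKM for Igf1r, 4.42 for Igfbp2, 9.42 for Igfbp3 and 212 for Igfbp7, each within the range of its sets. The scale applied to a gene also varied by set, and its median over all genes was 0.82, 1.04, 1.39 and 1.08 in sets A to D.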
